A study of Mus musculus with 6 samples.

Results

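Heat shock proteins and chaperones keep other proteins folded, soluble and assembled. Their genes were taken from the mRNA table of a mouse embryonic stem cell study by symbol: the Hspa, Hspb, Hspd, Hspe, Hsph and Hsp90 genes, the numbered Dnaja, Dnajb and Dnajc genes, and the Cct genes with Tcp1. The rule found 81 genes among 22969 distinct gene names (23235 entries). The rule uses gene names and no expression value, although it was set with earlier results of these data known. They were divided into 10 families, the DNAJ classes by symbol and the others by lists of genes: HSP70 (11 genes), HSP110 (3), HSP70 helpers (2), DNAJA (4), DNAJB (13), DNAJC (26), HSP90 (3), the cytosolic chaperonin CCT (9), the mitochondrial chaperonin (2) and small HSPs (8). Some members carry the family symbol without being classical chaperones, such as Hspb11, a subunit of the intraflagellar transport machinery. Another is Hspbap1, a protein that binds the small HSP encoded by Hspb1, although it was listed with the HSP70 helpers.

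The cells were E14Tg2a, an established mouse embryonic stem cell (ESC) line, at passages 37 to 40. ESCs were kept pluripotent with leukemia inhibitory factor (LIF) and gave 3 samples. Neuronal cells (NCs) came from LIF-free monolayers of the same line that had received 1 µM retinoic acid (RA) for 48 h (2 days), and gave the other 3 samples. All were grown in serum-containing medium, and total RNA was taken from whole plates, so each value is an average over every cell on them. Withdrawal of LIF and addition of RA took place together and cannot be told apart. Because 1 cell line was used, nothing here speaks to other ESC lines.

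Expression is given as FPKM, in which the fragments of a gene are divided by the length of its transcripts and by the size of the library. FPKM is a level per length, which allows one gene to be set beside another. Each gene has 1 value for each condition in the table, estimated by the authors over the 3 samples. It carries no values of single samples, so no SD, n or p-value is given, no difference was tested against the spread between replicates, and "higher" or "lower" compares 1 number with another. How many fragments each sample had is unknown, which leaves the counting error of low values unknown too. In such bulk samples, fewer cells that express a gene and less RNA per cell cannot be told apart.

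The labels were checked against marker genes. All 8 pluripotency markers were at least 2-fold lower in NCs (Pou5f1, 832 FPKM in ESCs and 37.1 in NCs), and all 6 RA-response markers were at least 2-fold higher (Cyp26a1, 0.874 and 215 FPKM). Of 8 neural markers, 5 were at least 2-fold higher, including Sox1 (1.77 and 21.8 FPKM) and Pax6 (3.64 and 65.2 FPKM), whereas the neuronal tubulin Tubb3 was lower (33.4 and 7.54 FPKM) and Dcx, a marker of young neurons, was at 0.334 FPKM in NCs. Markers of other cell types moved as well. The summed FPKM of 5 endoderm markers was 16.2 in ESCs and 37.7 in NCs, that of 4 fibroblast markers 20.6 and 52.5, and that of 4 mesoderm markers 2.17 and 1.26. The fibroblast markers disagreed, since 3 were at least 2-fold higher and Thy1 was lower (9.64 and 1.80 FPKM). The part of such other cell types in the chaperone values below was not tested.

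Most of these genes work in linked cycles. HSP70 proteins bind short greasy stretches of unfolded chains, J-domain proteins (DNAJ) deliver those chains and trigger ATP hydrolysis, and nucleotide exchange factors such as the HSP110 proteins release them. HSP90 acts later, on kinases, hormone receptors and other nearly folded clients. CCT is a double ring of 8 related subunits that folds actin and tubulin, Hspd1 and Hspe1 form the corresponding chamber and lid in mitochondria, and small HSPs hold unfolded chains without ATP. In stressed cells heat shock factors raise many of these genes from heat shock elements, and endoplasmic reticulum (ER) stress raises the ER members through a separate response, the unfolded protein response (UPR). ESCs are known for a high capacity for protein folding.

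Of the 81 genes, 73 had a mean FPKM of ESCs and NCs of at least 1. The most abundant were Hsp90ab1, Hspa8 and Hsp90aa1, which together held 53.1% of the summed FPKM of all 81 genes in ESCs and 49.4% in NCs. The sum over all 81 was 14151 FPKM in ESCs and 10575 in NCs, 1.34-fold lower in NCs. Since the FPKM of the whole table also summed to less in NCs (770586 and 628672), the chaperones' share of it moved less, from 1.84% to 1.68%.

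In NCs, 6 of the 73 genes (8.22%) were at least 2-fold higher: Hspa1a, Hspa1b, Hspa12b, Hspa13, Dnajb3 and Dnaja4. All 6 had low FPKM in ESCs, from 0.418 to 5.04. Of these, 4 (Hspa1a, Hspa1b, Hspa12b and Dnajb3) were under 1 FPKM in ESCs and passed the minimum only through NCs, so they had to be higher there, and with a minimum mean of 5 FPKM only Hspa13 was left. Among all 12782 genes past the same minimum, 11.1% were at least 2-fold higher. Another 5 (6.85%) were at least 2-fold lower, namely Hsp90aa1, Hspb1, Hspb8, Hspbap1 and Dnajc6, against 9.94% of all genes. Dnajc6 passed only through ESCs. At 1.5-fold, 13 (17.8%) were higher and 12 (16.4%) lower, with 19.3% and 18.8% of all genes. Neither the share of higher nor that of lower chaperone genes exceeded the background at either limit. The median log2 ratio of NCs to ESCs was -0.01 over the 73 genes and -0.04 over all genes.

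**Figure D1:**
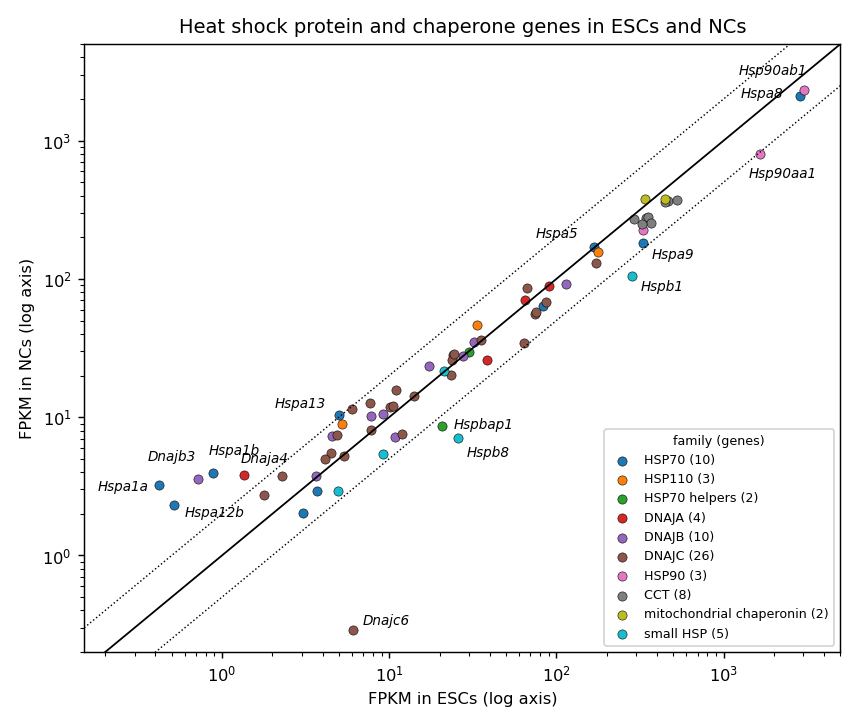
FPKM in NCs (y axis) against FPKM in ESCs (x axis) for the 73 chaperone genes with a mean FPKM of at least 1, both on log axes, 1 point per gene, coloured by family. The solid line marks equal values and the dotted lines 2-fold; 6 genes lie on or above the upper dotted line, all at or under 5.04 FPKM in ESCs, and 5 on or below the lower.

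The direction of the difference was uneven over levels. Dividing the genes by mean FPKM into bands, a division made after the values were seen, 18 of the 20 chaperone genes with at least 100 FPKM were lower in NCs, with a median log2 ratio of -0.35. Of the 14 with 1 to 5 FPKM, 4 were lower, 5 were at least 2-fold higher, and the median was 0.46. The 4 genes that passed only through NCs are among those 5, so nothing is drawn from this band. In the table as a whole, of all 895 genes with at least 100 FPKM, 74.4% were lower (median -0.30), and of all 3502 genes with 1 to 5 FPKM, 43.8% were lower (median 0.16). In the bands between, the chaperone medians were 0.01 (20 to 100 FPKM, 20 genes) and 0.20 (5 to 20 FPKM, 19 genes), and those of all genes were -0.12 and 0.02.

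**Figure D2:**
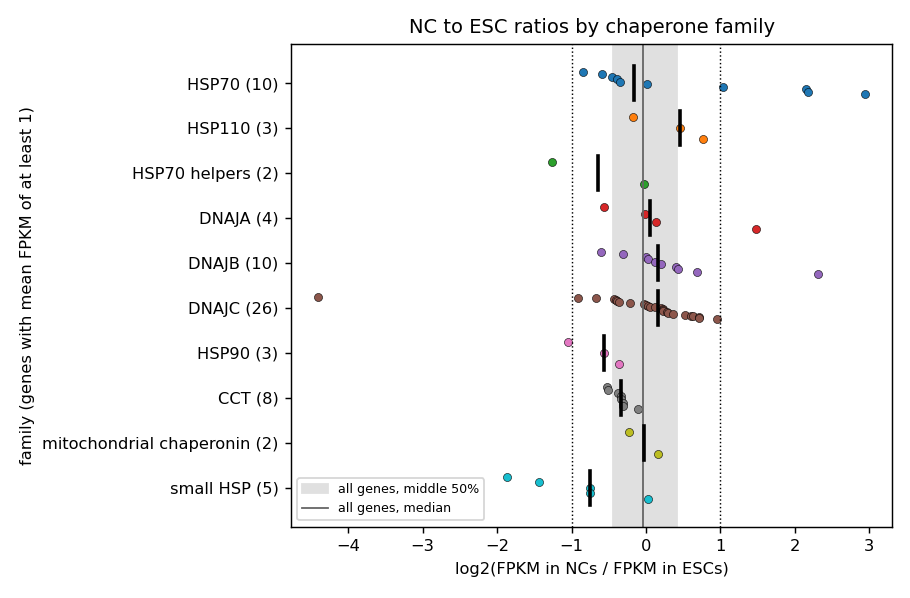
log2 of the NC to ESC ratio of FPKM (x axis) for each gene with a mean FPKM of at least 1 (points), by family (y axis, number of genes in parentheses), with the family median as a black bar. The grey band holds the middle 50% of all genes, -0.44 to 0.41, the grey line their median, and the dotted lines mark 2-fold; the 8 CCT points form a tight group left of zero, whereas the HSP70 points reach from -0.85 to 2.95.

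In the HSP70 family the abundant genes were lower or level in NCs, and 4 scarce genes were at least 2-fold higher. Of these 4, Hspa1a, Hspa1b and Hspa12b passed the minimum only through NCs and had to be higher. The scarce genes Hspa12a and Hspa2 were lower, so nothing is drawn from setting abundant and scarce genes side by side. Hspa8 encodes HSC70, the constitutive cytosolic HSP70 (chromosome 9, 40800984 to 40810087, GRCm38). It stood at 2859 FPKM in ESCs and 2092 in NCs, 1.37-fold lower, and ranked 55th and 50th of all genes. Hspa9 encodes mortalin, the mitochondrial HSP70 that pulls proteins through the inner membrane, and was 1.80-fold lower (328 and 182 FPKM). Hspa14, a ribosome-associated HSP70, had 82.7 and 63.4 FPKM. Hspa5 encodes BiP, the HSP70 of the ER, and was level (167 and 169 FPKM, log2 ratio 0.02).

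The stress-inducible cytosolic HSP70s were scarce in both states. Hspa1a (chromosome 17, 34969190 to 34972156, minus strand) was at 0.418 FPKM in ESCs and 3.22 in NCs, 7.71-fold higher. Its log2 ratio of 2.95 went down to 1.57 with 1 FPKM added to both conditions, and that of Hspa1b from 2.16 to 1.39. Its near-identical neighbour Hspa1b (chromosome 17, 34956436 to 34959238, minus strand) was at 0.878 and 3.92 FPKM, 4.46-fold higher. Of the 50-base words in the annotated transcripts of Hspa1a and Hspa1b, 66.3% and 62.3% also occur in other genes, mainly in each other, so how fragments were divided between them is uncertain. Their sum, taken for that reason after the values were seen, was 1.30 FPKM in ESCs and 7.14 in NCs, 5.51-fold higher. Even so, Hspa8 remained 293 times the level of the inducible pair in NCs, as against 2206 times in ESCs. Of the words of Hspa8, 39.4% are shared with other annotated genes, mainly numbered gene models. That makes its level, and every quotient that uses it, less certain.

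Both inducible genes hold a heat shock element in their promoters. RefSeq promoter windows (GRCm38.p6, 250 bases before to 50 after each transcription start) were given for 67 of the 81 genes. They were searched on both strands for a pair of heat shock units, GAANNTTC or TTCNNGAA, each of which is its own reverse complement. Several genes have more than 1 RefSeq start, and the stretches printed here for Dnaja4, Dnajb6, Hspa5, Hspd1 and Hsph1 lie inside the GENCODE span of the gene. A pair was found in 18 of the 67 genes (26.9%) and in 17.0% of all 27025 genes with a window. The matching stretches of the 2 inducible genes are shown because the genes had 2 of the 3 highest ratios in the HSP70 family. They lie on the minus strand at chr17:34972241-34972272 and chr17:34959323-34959354, -116 to -85 from each start, and are written 5′ to 3′ with the pair in capitals. Over these 32 bases the genes are identical.
Hspa1a: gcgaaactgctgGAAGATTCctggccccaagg
Hspa1b: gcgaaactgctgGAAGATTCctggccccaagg

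The other scarce HSP70 genes did not move as a group. Hspa12b, a distant HSP70 relative known from endothelial cells, was at 0.514 FPKM in ESCs and 2.33 in NCs, 4.54-fold higher (log2 ratio 2.18, or 1.14 with 1 FPKM added). Its relative Hspa12a went the other way (3.05 and 2.02 FPKM, 1.51-fold lower), a value that falls under 1.5-fold when 0.1 FPKM is added to both conditions. Hspa13 encodes Stch, a truncated HSP70 of microsomes, and was 2.05-fold higher (5.04 and 10.3 FPKM), just past the 2-fold limit and under it when 1 FPKM is added. Hspa2, the HSP70 of spermatocytes, had 3.71 and 2.92 FPKM. Over the 10 HSP70 genes past the minimum, 4 were at least 2-fold higher (40%, against 11.1% of all genes) and 2 at least 1.5-fold lower (20%, against 18.8%). Of those 4, all but Hspa13 had passed only through NCs. The median log2 ratio was -0.16, but 0.021 without a minimum and -0.38 with a minimum of 5 FPKM, so the family has no settled direction.

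Of the 3 genes of HSP110 proteins, which free HSP70 of its nucleotide, 2 were higher in NCs and 1 was lower (33.3%, against 52.4% of all genes). So few genes give the family no direction. Hspa4 (Apg-2), the most abundant, was at 177 FPKM in ESCs and 158 in NCs. Hsph1 (HSP105) was at 33.6 and 46.3 FPKM, 1.38-fold higher, and Hspa4l (Apg-1) at 5.21 and 8.86 FPKM, 1.70-fold higher. The level of Hspa8 relative to Hsph1 thus went from 85.1 to 45.2. The promoter of Hsph1 holds a run of 3 heat shock units (GAANNTTCNNGAA or TTCNNGAANNTTC, a search added after the values were seen, whose matches also contain the pair). Such a run occurs in 4 of the 67 chaperone genes (5.97%: Dnajb6, Hspd1, Hspe1 and Hsph1) and in 0.662% of all genes with a window. It is shown for Hsph1 at chr5:149636276-149636312, minus strand, with the run in capitals. In Hsph1 the run lies after each RefSeq start.
Hsph1: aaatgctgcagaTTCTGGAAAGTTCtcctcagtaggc

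Of the 2 genes with HSP names that encode partners of these chaperones, Hspbp1, an exchange factor for HSP70, was level (30.2 and 29.8 FPKM, marginally lower as deposited and marginally higher after centring on all genes). Hspbap1 (chromosome 16, 35770375 to 35828477) had 20.8 FPKM in ESCs and 8.66 in NCs, 2.40-fold lower.

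All 3 HSP90 genes were lower in NCs, as were 74.4% of all genes with at least 100 FPKM, the band they lie in. Hsp90ab1, the constitutive cytosolic HSP90, was the most abundant chaperone gene in both states, with 3006 FPKM in ESCs and 2333 in NCs, and ranked 49th and 33rd of all genes. Hsp90aa1, the inducible cytosolic form (chromosome 12, 110690605 to 110702728, minus strand), was at 1646 and 794 FPKM, 2.07-fold lower. The constitutive form was therefore 1.83 times the level of the inducible form in ESCs and 2.94 times in NCs. Of the words of Hsp90aa1, 47.5% are shared with other annotated genes, mainly numbered gene models, which makes its level less certain than that of Hsp90ab1 (3.44%). Hsp90b1 encodes GRP94, the HSP90 of the ER, and was at 332 and 225 FPKM, 1.48-fold lower. Together the HSP90 genes held 35.2% of the summed chaperone FPKM in ESCs and 31.7% in NCs.

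**Figure D3:**
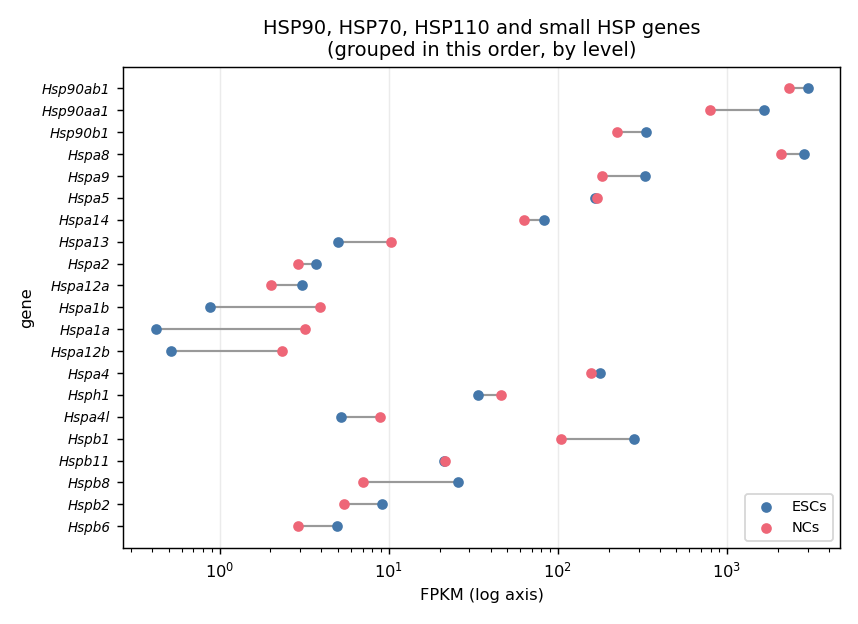
FPKM (x axis, log) of the HSP90, HSP70, HSP110 and small HSP genes with a mean FPKM of at least 1 (y axis, 1 row per gene), with ESCs in blue and NCs in red joined by a line. The NC point lies left of the ESC point for all 3 HSP90 genes and for 4 of the 5 small HSPs, and far to the right for Hspa1a, Hspa1b and Hspa12b, which lie at the low end of the axis.

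The small HSPs had the lowest family median, -0.76 over 5 genes, with 2 at least 2-fold and 4 at least 1.5-fold lower in NCs (9.94% and 18.8% of all genes). With a minimum of 5 FPKM the median was -1.09. Hspb1, the mouse HSP25 that binds unfolded chains and actin filaments (chromosome 5, 135887919 to 135889563), was at 283 FPKM in ESCs and 105 in NCs, 2.70-fold lower. Hspb8, which works with Bag3 in selective autophagy (chromosome 5, 116408491 to 116422864, minus strand), was at 25.7 and 7.01 FPKM, 3.66-fold lower. Hspb2 (9.13 and 5.42 FPKM, 1.68-fold lower) and Hspb6 (4.94 and 2.93 FPKM, 1.69-fold lower) are best known from muscle. Hspb11, the intraflagellar transport subunit, was level at 21.2 and 21.5 FPKM. The summed FPKM of the small HSPs was 344 in ESCs and 142 in NCs, and their share of all chaperone FPKM went from 2.43% to 1.35%. Of the words of Hspb1, 50.1% occur also in other genes, mainly in the pseudogene Hsp25-ps1, and 24.4% of those of Hspb2 occur in Cryab, which overlaps it on the opposite strand. Whether the counting used strand is not given in the sources used here.

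The promoters of Hspb1 and Hspb8 also hold the heat shock pair, although both genes were lower in NCs and the inducible HSP70s higher. That of Hspb1 contains 2 pairs at chr5:135887790-135887841 on the plus strand, and that of Hspb8 contains 1 at chr5:116422843-116422874 on the minus strand. The stretch printed for Hspb8 runs across the start, but its pair lies after the start. Each pair is in capitals.
Hspb1: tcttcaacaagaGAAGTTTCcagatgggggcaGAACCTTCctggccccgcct
Hspb8: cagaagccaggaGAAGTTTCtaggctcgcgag

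Over all chaperone genes with a window and a mean FPKM of at least 1, the 17 with a heat shock pair comprised 9 that were higher and 8 that were lower (median log2 ratio 0.05, from -1.87 to 2.95). The 42 without comprised 20 higher and 22 lower (median -0.01). Hspa1a and Hspa1b of the first group, and Hspa12b and Dnajb3 of the second, passed the minimum only through NCs and had to be higher. Dnajc6 of the second group passed only through ESCs and had to be lower. Hspd1 and Hspe1, both in the first group, share the same site. For these reasons nothing is drawn from setting the groups side by side. A match describes the letters of the window and says nothing of whether a factor binds there.

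The 8 somatic CCT subunits, which assemble in equal numbers into the ring, were all lower in NCs, and none reached 1.5-fold. Of all genes with at least 100 FPKM, the band of these subunits, 74.4% were lower. In ESCs they extended from 290 FPKM (Tcp1, the founding subunit) through a median of 360.7 to 528 (Cct4). In NCs they extended from 251 (Cct8) through 279 to 371 (Cct4). The highest was thus 1.82 times the lowest in ESCs and 1.48 times in NCs, and the coefficient of variation across subunits was 20.7% and 17.3%. Cct7 (368 and 255 FPKM, 1.44-fold lower) and Cct4 (528 and 371 FPKM, 1.42-fold lower) differed most. Tcp1 (290 and 269 FPKM, 1.08-fold lower) differed least, although 13.9% of its words are shared with overlapping or related genes.

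The remaining subunits were close to each other in ratio. Cct2 was at 463 and 367 FPKM, Cct3 at 344 and 277, Cct5 at 448 and 361, Cct6a at 354 and 281, and Cct8 at 326 and 251. Their folds lay between 1.24 and 1.30. The testis form Cct6b was at 0.702 and 0.421 FPKM, under the minimum of 1. The median log2 ratio of the 8 subunits, -0.33, was near the -0.30 of all genes with at least 100 FPKM. As a share of chaperone FPKM, CCT held 22.1% in ESCs and 23.0% in NCs.

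**Figure D4:**
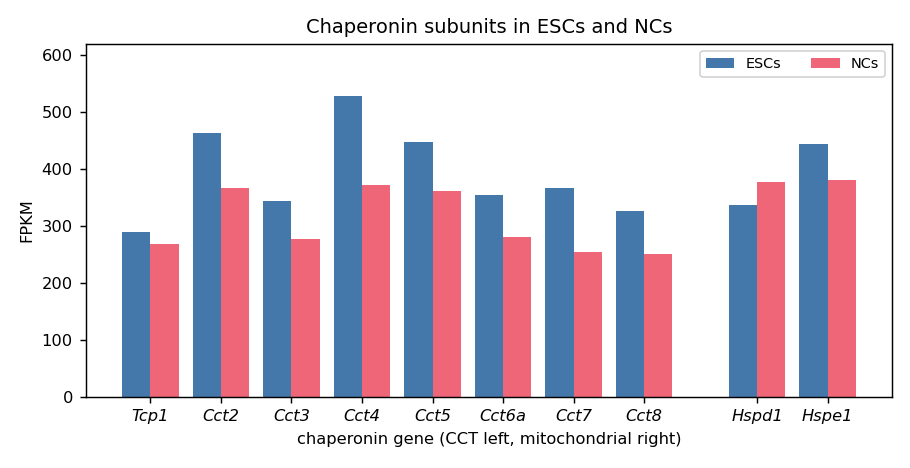
FPKM (y axis) of the 8 somatic CCT subunits and of the mitochondrial chaperonin genes Hspd1 and Hspe1 (x axis) in ESCs (blue bars) and NCs (red bars), 1 value per gene and condition with no error bars. Every CCT bar is lower in NCs, Cct4 is the tallest of the CCT bars in both, and Hspd1 and Hspe1 end at nearly the same height in NCs (378 and 380 FPKM).

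The mitochondrial chaperonin did not share this direction. Hspd1 (HSP60, chromosome 1, 55077835 to 55088243, minus strand) was at 337 FPKM in ESCs and 378 in NCs, 1.12-fold higher. Its lid Hspe1 (HSP10, chromosome 1, 55088132 to 55091307, plus strand) was at 445 and 380 FPKM, 1.17-fold lower. The quotient of Hspd1 to Hspe1 therefore went from 0.756 to 0.995. Words shared with pseudogenes and other genes made up 42.1% of Hspd1 and 22.8% of Hspe1. Set beside Hspd1, the mitochondrial HSP70 gene Hspa9 went from 0.974 to 0.481 of its level.

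Hspd1 and Hspe1 lie head to head, with annotated starts 111 bases apart and overlapping spans. A window of each holds the same heat shock site, read from opposite strands at chr1:55088047-55088088. For Hspe1 the site lies before the start. For Hspd1 it lies inside the GENCODE span and before only the more internal of 2 RefSeq starts (-156 to -115). The site is shown as each gene reads it, with the joined runs in capitals, because windows of both genes hold it and their ratios had opposite signs.
Hspd1: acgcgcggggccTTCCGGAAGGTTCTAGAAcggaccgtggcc
Hspe1: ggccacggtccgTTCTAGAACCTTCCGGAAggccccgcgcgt

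The DNAJ family, the J-domain partners of HSP70, had 43 members, 40 of them past the minimum. Of these, 26 were higher and 14 lower in NCs (35% lower, against 52.4% of all genes). The share of all genes that were lower depended on level, from 43.8% at 1 to 5 FPKM to 74.4% with at least 100 FPKM. At 2-fold, 2 were higher (5%, against 11.1% of all genes) and 1 was lower (2.5%, against 9.94%). At 1.5-fold, 8 were higher (20%, against 19.3%) and 4 lower (10%, against 18.8%). The counts at both limits include Dnajb3, which passed the minimum only through NCs and had to be higher. They also include Dnajc6, which passed only through ESCs and had to be lower. The median log2 ratio was 0.13 over all 40, and 0.06 for DNAJA, 0.16 for DNAJB and 0.16 for DNAJC. The summed FPKM of HSP70 genes relative to that of DNAJA and DNAJB genes went from 8.17 in ESCs to 6.17 in NCs.

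The largest differences were in genes of low FPKM. Dnajc6 encodes auxilin, which recruits HSC70 to strip clathrin from vesicles and is best known from neurons (chromosome 4, 101496648 to 101642799). It was at 6.11 FPKM in ESCs and 0.289 in NCs, 21.1-fold lower, the lowest ratio of the 73 genes. Its log2 ratio of -4.40 was -2.46 with 1 FPKM added. Dnajb3 (chromosome 1, 88204732 to 88205782, minus strand), known as a testis J-protein, was at 0.721 and 3.585 FPKM, 4.98-fold higher (log2 ratio 2.31, or 1.41 with 1 FPKM added). It lies within the Ugt1a cluster on the opposite strand, and without strand its reads could not be told from those of the cluster. Dnaja4, a cytosolic class A protein (chromosome 9, 54698873 to 54716315), was at 1.36 and 3.79 FPKM, 2.79-fold higher, with 42.7% of its words shared with Wdr61 on the opposite strand.

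Dnaja4 and Dnajb6 are shown as the DNAJ promoters with more than 1 heat shock pair. That of Dnaja4 contains 2 pairs at chr9:54699457-54699526, and that of Dnajb6, a J-protein that restrains aggregation, a run of 3 units at chr5:29735840-29735876, both on the plus strand. The gene with the run was lower in NCs (114 and 92.2 FPKM).
Dnaja4: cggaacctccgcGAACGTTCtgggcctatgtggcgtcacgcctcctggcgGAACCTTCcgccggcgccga
Dnajb6: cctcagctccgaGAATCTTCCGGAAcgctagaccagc

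Further genes at least 1.5-fold higher in NCs were Dnajc12 (5.96 and 11.5 FPKM, 1.93-fold), a partner of aromatic amino acid hydroxylases, and Dnajc30 (7.70 and 12.7 FPKM, 1.64-fold), a mitochondrial J-protein. They also included Dnajb4 (4.56 and 7.37 FPKM, 1.62-fold), a cytosolic class B protein. Dnajc14, linked to receptor export from the ER, was 1.44-fold higher (11.0 and 15.8 FPKM). Parts of Dnajc30 and Dnajc14 overlap other genes on the opposite strand, and 24.3% and 19.2% of their words are shared. Among the lower genes, Dnajc21, a factor of ribosome assembly, was at 64.4 and 34.2 FPKM, 1.89-fold lower. Dnajc4 (12.003 and 7.54 FPKM, 1.59-fold) and Dnajb5 (10.9 and 7.18 FPKM, 1.52-fold) were next. The value of Dnajb5 fell under 1.5-fold with 1 FPKM added or after centring.

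The 5 most abundant DNAJ genes were modestly different. Dnajc8, associated with the spliceosome, was at 172 and 130.5 FPKM, 1.32-fold lower. Dnajc7, which bridges HSP70 and HSP90, was at 86.9 and 67.8 FPKM, 1.28-fold lower, and Dnajb6 was 1.24-fold lower. Dnaja2, a cytosolic class A protein, was level at 89.8 and 89.05 FPKM, with a sign that changed after centring. Dnajc9, a histone chaperone, was higher at 66.4 and 85.6 FPKM, 1.29-fold. Dnajc2, bound to ribosomes, was 1.31-fold lower (75.1 and 57.2 FPKM).

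**Figure D5:**
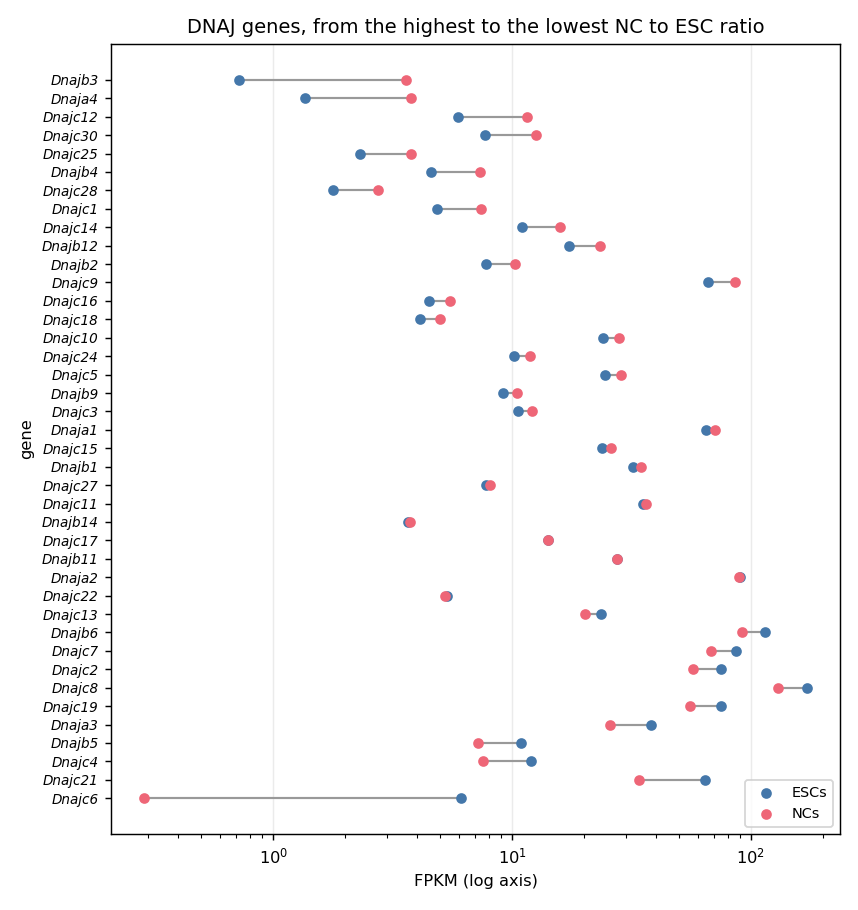
FPKM (x axis, log) of the 40 DNAJ genes with a mean FPKM of at least 1 (y axis, ordered from the highest to the lowest NC to ESC ratio), with ESCs in blue and NCs in red joined by a line. The points of most genes nearly touch, with Dnajb3 and Dnaja4 extending to the right at the top and Dnajc6 extending to the left at the bottom, down to 0.289 FPKM.

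The 10 listed J-proteins of the ER had a median log2 ratio of 0.26. In NCs 9 were higher and 1 was lower (10%, against 52.4% of all genes). The 10 genes lie in the bands of 1 to 5, 5 to 20 and 20 to 100 FPKM. There 43.8%, 48.3% and 60.8% of all genes were lower. At 1.5-fold, 2 were higher (20%, against 19.3% of all genes). Those were Dnajc1 (4.87 and 7.41 FPKM, 1.52-fold) and Dnajc25 (2.30 and 3.77 FPKM, 1.64-fold), and both fell under 1.5-fold with 1 FPKM added. The membrane J-protein Dnajb12 was at 17.3 and 23.4 FPKM, and its relatives Dnajb14 and Dnajc18 at 3.66 and 3.74 and at 4.11 and 4.996. Dnajc16 was at 4.48 and 5.49 FPKM. Dnajc10, which reduces disulfides of degradation clients, was at 23.9 and 28.1 FPKM, Dnajb9 at 9.12 and 10.5, and Dnajc3 at 10.6 and 12.1. The exception was Dnajb11, the main partner of BiP in folding, which was level at 27.6 and 27.5 FPKM and changed sign after centring. These small differences stood beside a level Hspa5 and a lower Hsp90b1, so the quotient of Hsp90b1 to Hspa5 went from 1.99 to 1.33 and that of Hspa5 to Hspa13 from 33.1 to 16.4.

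The ER stress element, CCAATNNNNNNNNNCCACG read on both strands, was present in the windows of 3 chaperone genes (4.48% of 67, against 0.137% of all genes with a window). They were Hspa5, Hsp90b1 and Dnajc3, with log2 ratios of 0.02, -0.56 and 0.20. Their elements are shown because these are textbook targets of the ER response and their ratios differed. The stretch of Hspa5 lies at chr2:34772013-34772055 and that of Dnajc3 at chr14:118937815-118937857, both on the plus strand. That of Hsp90b1, with 2 elements, lies at chr10:86705521-86705668 on the minus strand. The elements are in capitals.
Hspa5: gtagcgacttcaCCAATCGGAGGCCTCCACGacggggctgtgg
Dnajc3: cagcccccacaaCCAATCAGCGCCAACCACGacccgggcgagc
Hsp90b1: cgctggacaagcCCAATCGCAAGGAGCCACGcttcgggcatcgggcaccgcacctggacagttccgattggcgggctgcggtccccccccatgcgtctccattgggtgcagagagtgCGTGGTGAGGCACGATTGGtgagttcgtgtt

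The 7 mitochondrial J-proteins were divided, with 4 higher, 3 lower and a median log2 ratio of 0.03, which turned to -0.20 with a minimum of 5 FPKM. The lower ones were Dnaja3, the partner of mortalin in the matrix (38.2 and 25.8 FPKM, 1.48-fold), Dnajc19, of the import motor (74.9 and 55.4 FPKM, 1.35-fold), and Dnajc4. The higher ones were Dnajc30, Dnajc28 (1.77 and 2.75 FPKM, 1.55-fold, under 1.5-fold with 1 FPKM added), Dnajc15, of the import motor (23.8 and 25.99 FPKM), and Dnajc11, of the cristae (35.5 and 36.3 FPKM).

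The 9 DNAJ genes not described above had log2 ratios from -0.21 to 0.40, with 7 higher and 2 lower, of which Dnajc22 (5.36 and 5.24 FPKM) changed sign after centring. They include the main cytosolic partners of HSP70, named here after their values were seen, Dnajb1 (HSP40, 32.1 and 34.8 FPKM) and Dnaja1 (64.6 and 70.7 FPKM). Both were within 1.09-fold of their ESC level.

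The 8 genes under the minimum were Cct6b and 7 others, for which no ratio is read. The testis or tissue-restricted J-proteins Dnajb13 (0.410 FPKM in ESCs and 0.595 in NCs), Dnajb7 (0.0587 and 0.0773) and Dnajb8 (0.0152, and listed at 0 in NCs) were scarce in both. So were the muscle small HSPs Hspb3 (0.0651 and 0.155) and Hspb7 (0.242 and 0.151), the testis small HSP Hspb9 (0.187 and 0.397) and the testis HSP70 Hspa1l (0.561 and 0.785). Hspa1l shares 71.4% of its words with other genes, mainly with a gene model that overlaps it and with the inducible pair next to it.

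Genes that work with the chaperones were taken from lists of co-chaperones and related factors, and most members of each list were lower in NCs. So were 52.4% of all genes, with 60.8% of those at 20 to 100 FPKM and 74.4% of those with at least 100 FPKM. Of 30 cytosolic co-chaperones, 11 were higher and 19 lower (median log2 ratio -0.21). At 2-fold, 1 was higher and 2 were lower, against 11.1% and 9.94% of all genes. The first was Bag2, an exchange factor for HSP70 that blocks the ligase CHIP (5.70 and 13.8 FPKM, 2.43-fold higher). The others were Tomm34, which carries mitochondrial precursors (48.4 and 22.1 FPKM, 2.19-fold lower), and Fkbp5, an HSP90 partner of steroid receptors (50.04 and 23.9 FPKM, 2.09-fold lower). Stub1, the gene of CHIP, was listed at 1947 and 2735 FPKM, 1.41-fold higher, Bag5 was 1.46-fold higher, and Sugt1 was 1.73-fold lower.

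Prefoldin, which hands actin and tubulin to CCT, had 7 of 8 listed genes matched by name, of which 6 were lower (median -0.45). Vbp1 was the lowest in ratio (140 and 89.7 FPKM, 1.56-fold lower), followed by Uxt (1.44-fold) and Pfdn4 (1.38-fold). Pfdn1 and the prefoldin-like Pdrg1 were 1.23-fold and 1.04-fold lower, and Pfdn5 was 1.05-fold higher (138 and 145 FPKM).

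Of the heat shock factors, Hsf1, the main activator of the heat shock genes, was 1.36-fold higher (20.7 and 28.2 FPKM). Hsf2 was 1.15-fold lower (29.5 and 25.7 FPKM), and Hsbp1, a factor that binds Hsf1, was level (79.6 and 84.7 FPKM). Hsf2bp, a binding partner of Hsf2, was 3.67-fold lower (22.8 and 6.21 FPKM). Hsf5 and Hsf3 lay under the minimum in both conditions (0.710 and 0.474 FPKM, and 0.0202 and 0.0349 FPKM). Of the 5 genes of this list past the minimum, 2 were higher and 3 lower.

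Among 25 ER chaperone and UPR genes, 7 were higher and 18 lower (median -0.31). At 2-fold, 3 were lower and 0 higher, against 9.94% and 11.1% of all genes. The 3 were the UPR and amino acid response factors Ddit3 (40.8 and 15.4 FPKM, 2.66-fold lower) and Atf4 (123 and 54.8 FPKM, 2.25-fold lower), and the disulfide oxidase Ero1l (31.0 and 14.7 FPKM, 2.11-fold lower). The highest ratios belonged to Sec63, a J-domain protein of the translocon (1.40-fold higher), Txndc5 (1.39-fold) and Pdia3 (1.25-fold), both disulfide isomerases.

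The mitochondrial protein quality list held 15 genes, 2 higher and 13 lower (median -0.35). At 1.5-fold, 1 was higher and 4 were lower, against 19.3% and 18.8% of all genes. Afg3l2, an inner membrane protease, was 1.78-fold lower (44.9 and 25.2 FPKM). Grpel2, an exchange factor for mortalin, was 1.72-fold lower (16.7 and 9.69 FPKM), and the matrix protease gene Lonp1 1.64-fold lower (87.4 and 53.3 FPKM). Htra2, a protease of the intermembrane space, was 1.62-fold higher (19.2 and 31.1 FPKM). The other higher gene was Hsf1, which is also on this list although it is a heat shock factor and not a mitochondrial protein. The counts and the median of the list include it. Clpx, an unfoldase of the matrix, was 1.10-fold lower. Mortalin itself and its partner Dnaja3 were lower too, as given above, whereas Hspd1 was not.

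Annotation limits touch a part of these values. Of the 81 genes, all of which were matched in GENCODE M21, 49 shared at least some 50-base words with other annotated genes, 18 shared over 10%, and 44 overlapped another gene. The 2-fold differences of Hspa12b, Hspa13, Hspb8, Hspbap1 and Dnajc6 were in genes with at most 4.08% of words shared, and those of Hspa1a, Hspa1b, Hspb1, Hsp90aa1 and Dnaja4 in genes with at least 42.7% shared. Dnajb3 shared no words but overlaps other genes.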

How the data were processed

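RNA from 3 ESC and 3 NC samples had been prepared with a TruSeq kit and sequenced on an Illumina HiSeq instrument. The authors' processing used TopHat2 2.0.8, Bowtie2 2.1.0, Cufflinks 2.0.2 and Cuffdiff on mm10, and they deposited an FPKM for each gene in each condition, estimated over 3 samples. The heading of the NC column reads FPK and was taken as FPKM. The table's fold changes, test statistics, p-values, q-values and significance marks are the authors' own comparison and were not used. Depth per sample is unknown.

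Ratios were computed without a pseudocount over genes with a mean FPKM of at least 1. A name with several entries (266 further entries) was represented by the entry with the highest mean. No test was possible, so counts past 2-fold and 1.5-fold were read beside those of all genes. Members and lists were chosen with earlier results of these data known. All members outside DNAJ were named, and of DNAJ the ER and mitochondrial lists, the 8 highest and 8 lowest differences of log2(FPKM + 1) and the 5 highest means. Of each outside list, the 3 highest and 3 lowest differences were named.

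Positions and shared words came from GENCODE M21 (GRCm38) and promoters from RefSeq. The computation was tested on simulated data for the same comparison with 12782 genes, and found 100 of 100 genes planted 4-fold higher and 100 of 100 planted 4-fold lower, with 0 others called. The simulated spread was small beside the planted change, so the outcome was certain if the counting worked. It says nothing of the spread of real samples. Python 3.11.15, numpy 2.4.6, pandas 2.3.3 and matplotlib 3.10.9 were used. Alternatives were pseudocounts of 0.1 and 1, centring on the median of all genes, filters on mean FPKM and sums over entries.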

Additional observations from a re-analysis of the deposited data

How the results depend on the processing

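No paired analysis was possible because the table holds 1 value per gene and condition. For the same reason no replicate could be left out, and the spread between samples limits every ratio to an unknown extent. Each chaperone gene has 1 entry, so summing over entries could not change its value. The counts, medians and ratios recomputed in that way were the same in advance and say nothing of stability, although they are included below. Of the 24 counts recomputed, 22 stayed within 1.5 times the reported count. With a mean FPKM of at least 5, which leaves 59 genes, 1 chaperone gene was at least 2-fold higher (6.83% of all genes) and 4 were at least 2-fold lower (7.91%). At 1.5-fold, 6 were higher (13.9% of all genes) and 9 lower (16.9%). The scarce genes are no longer included there, and the 6 higher and 5 lower genes of the report became 1 and 4. The same filter moved the medians of DNAJC to 0.048, HSP70 to -0.38, small HSPs to -1.09 and mitochondrial J-proteins to -0.20. Without a filter, the medians of DNAJB and HSP70 were 0.30 and 0.021, the latter on the other side of zero. The other 72 recomputed medians moved by less than the tolerance of 0.1. Of 292 recomputed ratios of single genes, 291 kept their side of the 2-fold limit. Hspa13 did not with 1 FPKM added (log2 ratio 0.91). Centring turned the sign of 4 genes with log2 ratios no lower than -0.03, and no gene past 1.5-fold changed sign.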
